A study of Homo sapiens with 6 samples.

Results

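CD55 and 7 other genes of the complement system were followed in SUM-LM1 cells, a human breast cancer line derived from SUM159 and metastatic to the lung. The genes were CD55, CD46, CD59, C3, CFB, CFI, C1R and C1S, taken as every probe set whose single gene symbol in the array annotation was one of these names. They gave 19 probe sets out of 54613, and 8 genes out of 19775 with a named set. The group was selected on measured values of these same arrays. It is treated throughout as chosen for a difference in CD55 between treated and untreated cells. The differences between groups are therefore given for these 8 genes as a description. No p value is printed for them, and counts of their probe sets past a threshold are descriptions too. The 95% intervals, printed only for some sets of genes other than CD55, are descriptions as well.

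Cells were exposed for 6 h to recombinant activin B at 50 ng/ml (3 arrays) or to vehicle, BSA in PBS (3 arrays), in medium with BSA on plates that prevent attachment. The replicates are called biological in the sample titles. Both groups came from a single line, so any change is that of this line, and a change in RNA per cell cannot be told apart from a change in the share of cells that express a gene. Values are log2 signals of Affymetrix Human Genome U133 Plus 2.0 arrays, on which several probe sets can read the same gene. Names ending in _s_at or _a_at mark sets whose probes fit several transcripts, and those ending in _x_at sets whose probes may also bind unrelated ones. They ran from 5.79 to 14.22, with array medians between 6.69 and 6.70. Activin B replicate 3 stood apart on the first principal component, at 21.7, against -10.6 to 5.70 for the other 5 arrays. The scores also rose with replicate number in both groups. For replicates 1, 2 and 3 they were -10.6, -5.98 and 5.70 in vehicle, and -9.10, -1.67 and 21.7 in activin B. All 6 markers listed for SUM159, as a mesenchymal-type basal breast cancer line, were bright, between 10.28 for AXL and 13.90 for VIM. Among them, KRT18 at 12.04 is a keratin of simple epithelium, luminal cells included, so its signal does not mark this type. The markers listed for luminal epithelium, which leave out KRT18, and for leukocytes, hepatocytes and endothelium lay lower. The brightest were SERPINA1 at 8.12, PECAM1 at 7.74 and GATA3 at 7.44. No marker of these lists was called as different between the groups by limma (adjusted p threshold 0.05).

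Complement is a cascade of plasma proteins that tag and puncture foreign cells. The C1r and C1s proteases start its classical branch, C3 is the central component on which all branches meet, and factor B is the protease of the alternative branch. Human cells protect themselves with membrane proteins. CD55, also called decay-accelerating factor, takes apart the enzymes that cleave C3. CD46 is a cofactor with which factor I, the product of CFI, destroys deposited C3b and C4b, and CD59 blocks the last step, the membrane attack pore. Tumor cells often carry these shields.

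The start region of CD55 is shown because it was the gene of the group whose signal rose. Beside it is that of CD46, a membrane regulator on the same chromosome with log2 differences between -0.10 and 0.04. Both are RefSeq windows of the assembly GRCh38.p14 on the plus strand, from 250 bases before to 50 bases after the gene start, at chr1:207321428-207321727 for CD55 and chr1:207751788-207752087 for CD46. Capitals mark GTCT or its reverse complement AGAC, the short motif that SMAD proteins, the transducers of activin signals, are known to bind.
CD55: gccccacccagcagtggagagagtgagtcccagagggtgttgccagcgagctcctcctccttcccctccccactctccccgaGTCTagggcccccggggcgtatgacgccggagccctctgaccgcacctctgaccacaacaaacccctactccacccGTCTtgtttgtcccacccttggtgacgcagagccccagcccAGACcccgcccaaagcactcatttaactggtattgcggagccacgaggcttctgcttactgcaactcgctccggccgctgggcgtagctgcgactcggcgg
CD46: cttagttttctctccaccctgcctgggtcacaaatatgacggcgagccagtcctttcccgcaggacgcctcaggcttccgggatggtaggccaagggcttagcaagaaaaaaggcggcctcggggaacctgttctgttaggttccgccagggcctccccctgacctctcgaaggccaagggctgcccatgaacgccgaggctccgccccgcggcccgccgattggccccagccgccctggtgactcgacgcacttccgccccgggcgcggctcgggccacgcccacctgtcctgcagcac

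GTCT, searched on both strands, occurred 3 times in the CD55 window and 0 times in that of CD46. Of 35116 windows of 300 bases in the RefSeq set, 84.0% held it at least once and 30.5% held it 3 times or more. The GC-rich motif GGCGCC, which reads the same on both strands and which SMAD proteins also bind, occurred 0 times in either window and in 19.2% of all windows. Windows matched 6 of the 8 genes, those other than C3 and C1S. In the windows at the outermost gene starts, GTCT occurred once for CD59, 2 times for CFB, and 3 times each for CFI and C1R. CFI and C1R thus had the same count as CD55. Their log2 differences were -0.04 to 0.01 for CFI, which was dim, and -0.05 for C1R. The motif counts describe the letters of the windows, and binding was not tested.

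CD55 was higher in activin B than in vehicle on every one of its 3 probe sets. Probe set 201925_s_at had log2 signals of 11.10, 11.06 and 10.88 in the activin B arrays, against 10.30, 10.42 and 10.55 in the vehicle arrays. The lowest treated value, that of activin B replicate 3, lay above the highest untreated one, that of vehicle replicate 3. The means were 11.01 ± 0.12 in activin B and 10.42 ± 0.12 in vehicle (SD, n = 3 each), a log2 difference of 0.59 ± 0.08 (SE) or 1.51-fold. Sorted by size of rise, this probe set took place 20 among all probe sets. Nothing is read from that place, since CD55 is treated as chosen on this difference.

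Probe set 201926_s_at moved less but was tighter. It read 10.63, 10.71 and 10.65 in activin B, against 10.29, 10.38 and 10.36 in vehicle, so that the gap between the groups was wider than the spread within either. Means of 10.66 ± 0.04 in activin B and 10.34 ± 0.05 in vehicle (SD, n = 3 each) gave a log2 difference of 0.32 ± 0.06 (SE), or 1.25-fold. The third set, 1555950_a_at, read 11.22, 11.28 and 11.42 in activin B and 11.01, 11.10 and 11.16 in vehicle. Here the groups were separated by a narrow margin, with 11.22 as the lowest treated and 11.16 as the highest untreated value. Its log2 difference was 0.22 ± 0.07 (SE), or 1.16-fold.

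**Figure D1:**
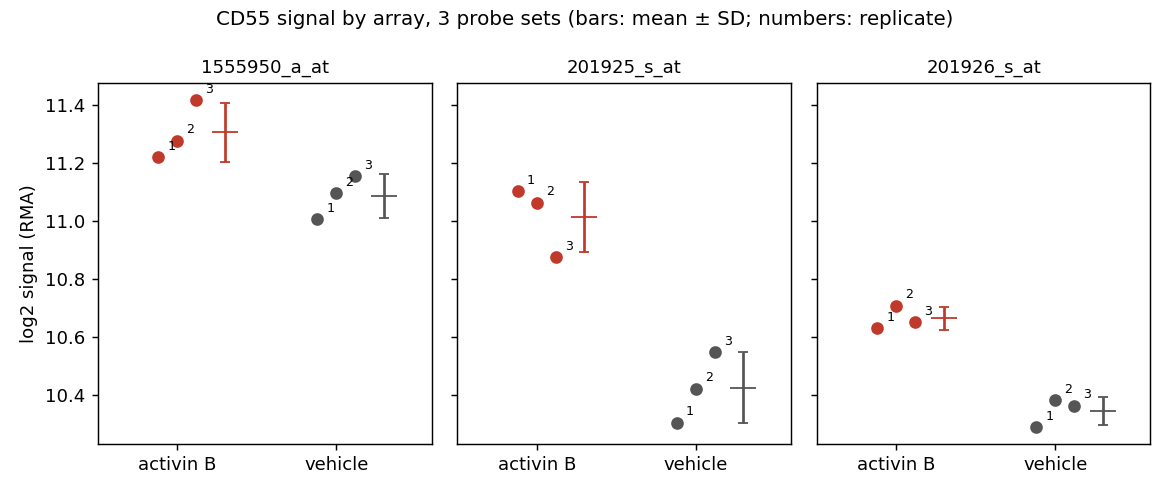
Log2 signal (vertical axis) of the 3 CD55 probe sets in each array, activin B in red and vehicle in grey. Points are arrays numbered by replicate and bars are means with SD (n = 3). In each panel all activin B points lie above all vehicle points, with the widest gap for 201925_s_at at a log2 difference of 0.59.

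Averaged over the 3 probe sets, CD55 stood at 10.99, 11.02 and 10.98 in activin B, against 10.53, 10.63 and 10.69 in vehicle. The treated arrays lay closer together than the untreated ones. The means were 10.99 ± 0.02 in activin B and 10.62 ± 0.08 in vehicle (SD, n = 3 each), a difference of 0.38 on the log2 scale or 1.30-fold. In activin B replicate 3, the deviation from the group mean was 0.11 on set 1555950_a_at and -0.14 on 201925_s_at, and these cancelled in the average.

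The 3 probe sets agreed in direction and differed in size. The log2 difference was larger by 0.27 on 201925_s_at than on 201926_s_at, and the log2 difference on 1555950_a_at minus that on 201925_s_at was -0.37. The within-array difference of 201925_s_at minus 201926_s_at, read only for how it changed between groups, was 0.47, 0.36 and 0.23 in activin B and 0.02, 0.04 and 0.18 in vehicle, without overlap. Which CD55 transcripts each probe set reads was not determined here. After the group means were removed, the deviations of the sets over the 6 arrays correlated at 0.46 for 201925_s_at with 201926_s_at, 0.39 for 1555950_a_at with 201926_s_at, and -0.15 for 1555950_a_at with 201925_s_at. These correlations are a description over 6 shared arrays. Without activin B replicate 3, their mean was 0.72, compared with 0.23 over all arrays, and without vehicle replicate 1 it was -0.26.

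At the threshold of 0.05 on limma's adjusted p, 1 of the 19 probe sets was called, 201925_s_at of CD55, and it was higher in activin B. Over all probe sets 0.121% were called, and 0.0732% were called with a higher signal in activin B. Because the same comparison led to the choice of the genes, nothing is read from this count. The other CD55 sets did not pass, although 201926_s_at did with a prior variance that follows the signal, a setting under which 79 of all probe sets were called.

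**Figure D2:**
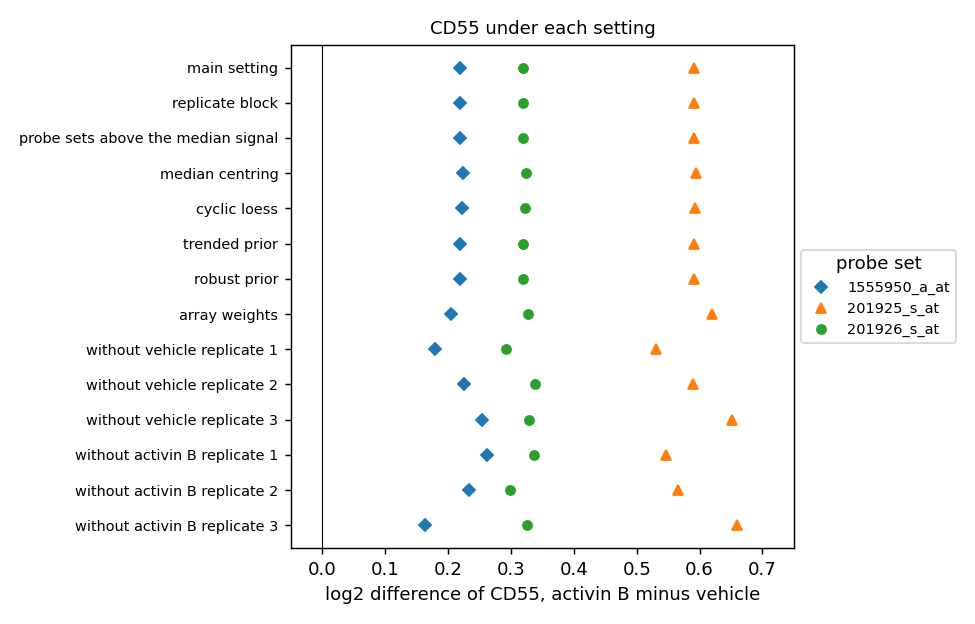
Log2 difference of each CD55 probe set, activin B minus vehicle (horizontal axis), under each setting of the analysis (rows). Diamonds are 1555950_a_at, triangles 201925_s_at and circles 201926_s_at; all points lie to the right of 0, between 0.16 and 0.66, and the order of the sets is the same in every row.

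The replicate block, the filter on dim sets and the trended and robust priors cannot move a difference of group means, so their rows repeat the main one by construction. The direction is that on which CD55 was chosen. Across the other settings, 201925_s_at ranged between 0.53 and 0.66, 201926_s_at between 0.29 and 0.34, and 1555950_a_at between 0.16 and 0.26. The lowest value of 1555950_a_at came without activin B replicate 3, the array that stood apart, which for 201925_s_at gave the highest value. Leaving out that array thus moved the 2 sets in opposite directions.

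CD46 and CD59, the other membrane regulators among the 8 genes, did not follow CD55. CD46 was read by 3 probe sets, with log2 differences between -0.10 and 0.04. The brightest, 208783_s_at, read 10.30, 10.32 and 10.25 in activin B, against 10.44, 10.36 and 10.36 in vehicle. These groups did not overlap, with activin B below vehicle, yet the log2 difference was small at -0.10 ± 0.06 (SE; 95% interval -0.23 to 0.03). Set 207549_x_at, of a kind whose probes can bind other transcripts, read 8.28, 8.35 and 8.17 in activin B and 8.19, 8.39 and 8.12 in vehicle. The remaining set, 211574_s_at, averaged 7.94 ± 0.13 in activin B and 7.96 ± 0.07 in vehicle (SD, n = 3 each). On both of these sets the groups overlapped.

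CD59, a small protein tied to the membrane by a lipid anchor as CD55 is, was read by 5 probe sets. Its log2 differences lay between -0.04 and 0.11, and the groups overlapped on all 5. The brightest, 200983_x_at, read 12.31, 12.29 and 12.28 in activin B, against 12.29, 12.33 and 12.37 in vehicle, with a log2 difference of -0.03 ± 0.06 (SE; 95% interval -0.16 to 0.10). Set 212463_at had the largest difference of the gene, with 9.86, 9.77 and 10.03 in activin B and 9.76, 9.72 and 9.84 in vehicle. Its high value belonged to activin B replicate 3. Sets 200984_s_at and 200985_s_at averaged 11.74 and 11.85 in activin B, and 11.66 and 11.84 in vehicle. The dimmest set, 228748_at, averaged 7.69 ± 0.16 in activin B and 7.73 ± 0.10 in vehicle (SD, n = 3 each).

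C3, the central component, had a bright signal in this line. Its single probe set, 217767_at, read 11.29, 11.24 and 11.17 in activin B, against 11.31, 11.28 and 11.21 in vehicle. The groups overlapped, and the log2 difference was -0.03 ± 0.06 (SE; 95% interval -0.17 to 0.11). Its mean signal was higher than that of 97.9% of all probe sets, a statement about the brightness of the spots, which depends on the probes as well as on the amount of RNA.

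CFB, which encodes factor B, was read by 2 sets of very different brightness. Set 202357_s_at read 9.32, 9.27 and 9.38 in activin B, against 9.39, 9.41 and 9.47 in vehicle. All treated arrays lay below all untreated ones, the closest pair being 9.38 in activin B replicate 3 and 9.39 in vehicle replicate 1, and the log2 difference was -0.10 ± 0.06 (SE; 95% interval -0.24 to 0.03). Set 211920_at lay under the median of all probe sets, at 6.60 ± 0.06 in activin B and 6.66 ± 0.02 in vehicle (SD, n = 3 each). CFI, the gene of the protease factor I, was dim on both of its sets. Set 1555564_a_at averaged 6.25 ± 0.03 in activin B and 6.29 ± 0.07 in vehicle, and 203854_at 6.46 ± 0.09 in activin B and 6.45 ± 0.11 in vehicle (SD, n = 3 each). At signals this close to the floor of the array, a change in CFI could go unseen.

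C1R and C1S, which encode the paired proteases of the first component, were both bright. C1R read 9.32, 9.34 and 9.58 in activin B, against 9.42, 9.46 and 9.51 in vehicle, on its single set 212067_s_at. The high treated value again belonged to activin B replicate 3, and the groups overlapped. C1S read 9.94, 9.84 and 9.91 in activin B, against 10.08, 10.01 and 9.94 in vehicle, on 208747_s_at, with a log2 difference of -0.11 ± 0.06 (SE; 95% interval -0.25 to 0.03). The overlap here was slight, since only vehicle replicate 3 lay within the treated range. Its other set, 1555229_a_at, read 8.31, 8.32 and 8.18 in activin B and 8.42, 8.43 and 8.25 in vehicle, with a log2 difference of -0.10 ± 0.07 (SE).

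**Figure D3:**
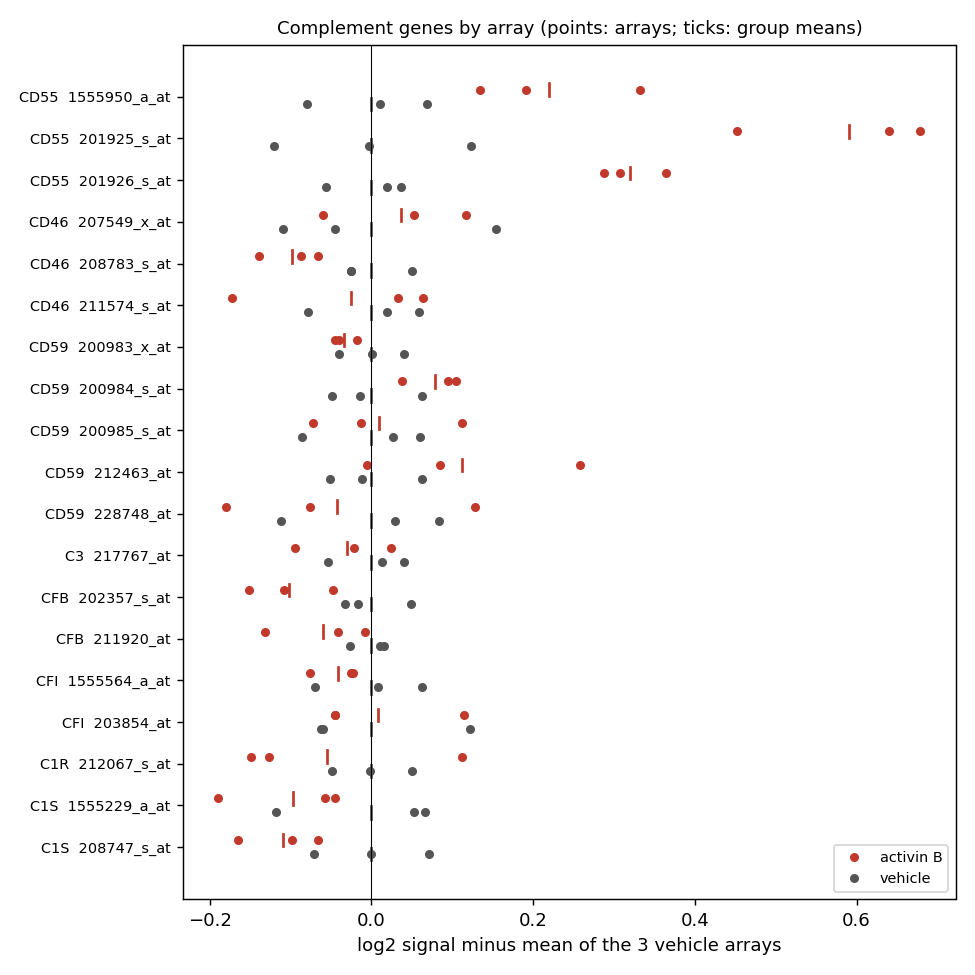
Log2 signal per array after subtraction of the vehicle mean (n = 3; horizontal axis) for the 19 probe sets (rows). Points are arrays and ticks are group means, activin B in red above vehicle in grey; the CD55 rows lie to the right, with treated means at 0.22 to 0.59, and the treated means of the other 16 rows lie between -0.11 and 0.11.

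Outside CD55, the 16 probe sets of the other 7 genes had a median log2 difference of -0.04, compared with 0.00 over all probe sets, and none was called. None had an unadjusted p under 0.05 by limma, a level that 5.28% of all probe sets passed. All activin B arrays lay above all vehicle arrays on 0 of these 16 sets, against 4.91% of all probe sets. The 3 CD55 sets, on which they did, are not set against that share, since CD55 was chosen for this difference. They lay below on 2 sets, 208783_s_at of CD46 and 202357_s_at of CFB, against 4.89% of all probe sets. Of the 16 sets, 13 had a mean signal above the median of all probe sets, so most could be read.

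The rest of the complement system was looked at through 49 further genes that had a probe set with that single symbol, 84 sets in all. By limma, 0 of the 84 sets were called, against 0.121% of all probe sets. Before adjustment 4 passed 0.05, against 5.28% of all. With so small a share called over all probe sets, a count of 0 in 84 does not set these genes apart. The median log2 difference was 0.00, the same as over all probe sets. Most of these genes were dim, with only 19 of the 84 sets above the median signal.

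By role, none of 5 sets of the classical components, 2 of the alternative, 18 of the lectin and 8 of the terminal components was called. The sets above the median signal numbered 1, 1, 3 and 0 in these lists. None of 12 sets of secreted regulators was called, nor any of 21 sets of other membrane regulators or 18 of receptors and binding partners. Of the 4 sets that passed 0.05 before adjustment, 2 were of secreted regulators and 2 of other membrane regulators. The smallest p belonged to THBD, the gene of thrombomodulin, an endothelial anticoagulant that also dampens complement. Its set 203888_at read 9.97, 10.24 and 10.38 in activin B, against 9.75, 9.94 and 10.15 in vehicle, with overlapping groups (log2 difference 0.25 ± 0.11, SE, with adjusted p = 0.914 by limma). The 2 other sets of THBD had log2 differences of 0.23 and 0.24 and did not pass either (adjusted p = 0.949 and 0.959 by limma). All of its sets thus differed in the direction of CD55, each by more than the 0.22 of CD55 set 1555950_a_at.

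SUSD4, CPN1 and CLU followed in the order of p, each with an adjusted p of 0.934 by limma. SUSD4, a membrane protein with complement control modules, and CPN1, a subunit of the enzyme that trims complement fragments, were dim, at mean signals of 6.47 and 6.65. CLU, or clusterin, a secreted inhibitor of the attack pore, averaged 8.25 ± 0.07 in activin B and 8.40 ± 0.09 in vehicle on 208792_s_at (SD, n = 3 each). Its log2 difference there was -0.15. On 222043_at, 208791_at and 1559228_at the gene had log2 differences of -0.16, -0.11 and -0.02. All sets of CLU thus differed in the direction opposite to CD55, and none was called. ADGRE5, also named CD97, a surface receptor that binds CD55, averaged 10.16 ± 0.11 in activin B and 10.30 ± 0.02 in vehicle on 202910_s_at (SD, n = 3 each). Its log2 difference of -0.14 ± 0.07 (SE) did not pass (adjusted p = 0.951 by limma). All activin B arrays lay below all vehicle arrays by a narrow margin, as on 4.89% of all probe sets. The sign was opposite to that of CD55, and a link between the genes was not tested.

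**Figure D4:**
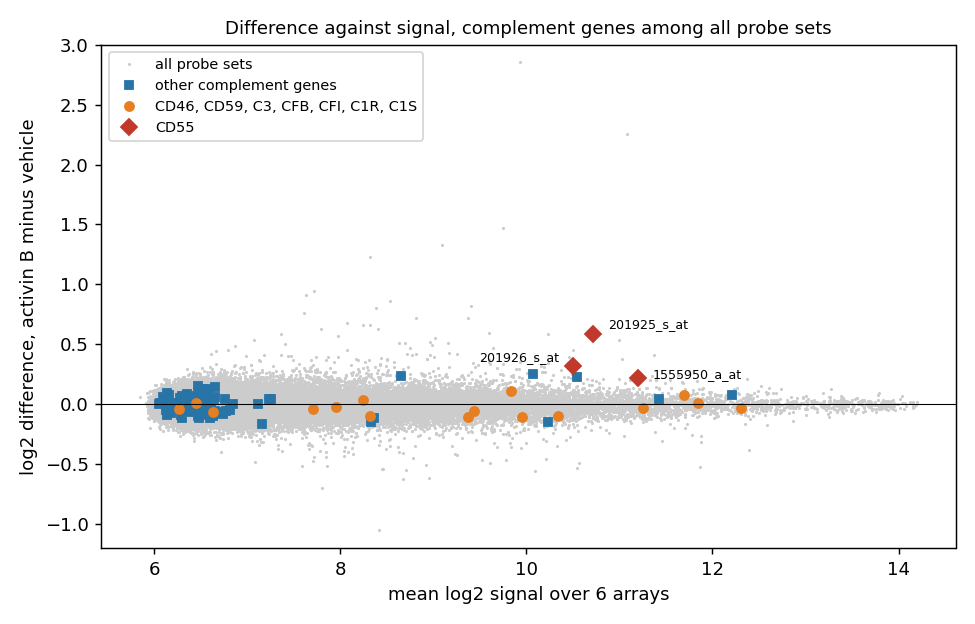
Log2 difference, activin B minus vehicle (vertical axis), against mean log2 signal over the 6 arrays (horizontal axis) for all 54613 probe sets in grey. CD55 is drawn as red diamonds, the other 7 genes as orange circles and the 84 sets of further complement genes as blue squares; the diamonds lie at 0.22 to 0.59, and the highest blue square, THBD, at 0.25.

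CD55 and CD46 belong to a run of complement regulator genes on chromosome 1. In RefSeq order the 7 protein-coding genes of the run were C4BPB, C4BPA, CD55, CR2, CR1, CR1L and CD46. Apart from CD55, no gene of the run had a called set. The immediate neighbors C4BPA and CR2 had log2 differences of 0.00 and of 0.06 to 0.07, and CR1, CR1L and C4BPB lay between -0.09 and 0.10. All of these were dim, with no set above 6.85, while CD55 and CD46 reached 11.20 and 10.34.

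Across the 6 arrays, the genes whose signal ran most like the CD55 average were PCDH7, CD24, DLX1, RHOBTB3, DLX2 and DMRTA2, with Pearson correlations between 0.98 and 1.00. They were taken from 160 probe sets with a signal above the median and a log2 difference of at least 0.3 in size. Requiring a difference between the groups makes high correlations common, so the likeness is mostly that difference. PCDH7, a protocadherin, came closest, with a log2 difference of 0.31 ± 0.06 (SE), near the 0.38 of CD55. DLX2, a homeobox factor, had a much larger one of 1.33 ± 0.08 (SE), so that a like pattern over arrays did not mean a like size.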

How the data were processed

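The deposited table holds log2 signals that the authors made with the RMA method (robust multiarray average) in Chipster. That step gives all arrays nearly the same distribution, so a change shared by most transcripts is removed, and it compresses differences near background. Scanner files were not used here, so background correction was not varied and no scan batch was tested.

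Genes were named from the platform annotation of the array. The gene identifiers of all 19 probe sets matched RefSeq (GRCh38.p14), with 0 symbols changed. After 62 array controls were left out, activin B was compared with vehicle by limma 3.58.1 in R 4.3.3 over all 54613 probe sets, with Benjamini-Hochberg adjustment, and sets with adjusted p below 0.05 were called. Differences are activin B minus vehicle. The number of arrays, 3 per group, limits the precision, with a median standard error of 0.069. The script was tested on simulated data with known changes. Of log2 changes of 0.25, 31.2% were called there, and of changes of 0.5, 99.6%. The simulated noise was independent, and the number of changed sets was set by hand. Both can differ in the real arrays, where the shares called may be lower. A set that was not called may therefore still have changed by 0.25 or more.

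The members and gene lists were chosen with earlier results of these data known. Named were every probe set of the 8 genes, the 6 further complement sets with the smallest p (any that was called would have been named too), and the 6 genes most like CD55. The likeness to CD55 was Pearson's r with the mean of its 3 sets. The neighbors on chromosome 1, the third THBD set, the further CLU sets and the brightest set of each marker were chosen after values were seen. Also tried were a fit blocked on replicate number, a filter on dim sets, median centring, cyclic loess, trended or robust priors, array weights, leaving out each array, and averaging the sets of a gene. Figures were drawn with matplotlib 3.10.9.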

Additional observations from a re-analysis of the deposited data

How the results depend on the processing

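CD55, averaged over its 3 probe sets, had log2 differences between 0.33 and 0.41 under the 14 alternatives. The replicate block, the filter on dim sets, the trended and robust priors and the averaging of sets cannot change this value, and its direction is that on which CD55 was chosen. The count of called probe sets among the 8 genes was 1 under 13 of them, and 2 with a trended prior, where 201926_s_at passed as well. Over all probe sets, 79 were called with the trended prior, and between 32 and 63 with an array left out, against 66 in the main setting. With the sets of each gene averaged, 25 of 19775 genes were called, and among the 8 only CD55 was. Since CD55 is treated as chosen on this comparison, nothing is read from that call. No further complement gene was called under any of the 14. The mean correlation of the CD55 sets within groups, 0.23 in the main setting, was -0.16 with the replicate block and ranged from -0.26 without vehicle replicate 1 to 0.72 without activin B replicate 3; the cause was not tested. The replicate numbers are not known to mark a shared culture or day. Same-numbered arrays deviated together at correlations between 0.04 and 0.19, over 0.1 in 2 of 3 pairs, and each of the 6 arrays correlated best with its own number, a hint from the data and not from the design. With the replicate block, 97 of all probe sets were called, against 66 without it. Between arrays of the same number, 1, 2 and 3 in turn, 201925_s_at of CD55 had log2 differences of 0.80, 0.64 and 0.33. Those of 201926_s_at were 0.34, 0.33 and 0.29, and those of 1555950_a_at 0.21, 0.18 and 0.26. Signals near the array floor, as for CFI, limit what can be read.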
